A study of Mus musculus with 12 samples.

Results

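The regions described here were 2024 distal intervals of mouse C2C12 cells that carried H3K27ac in myotubes and H3K4me1, but no listed H3K27ac, in myoblasts. They were chosen by a fixed rule from the deposited peak lists and reads, of 47039 intervals in the myotube H3K27ac list. Of these, 46294 lay on chromosomes 1 to 19, and 31776 lay over 2.5 kb from every protein-coding transcription start in the mm9 build. Of these distal intervals, 20031 overlapped no interval of the list named for myoblast H3K27ac, and 8464 of the 20031 overlapped a myoblast H3K4me1 interval. With at least 20 myotube H3K27ac reads 3182 remained. With a share of the myotube library at least 3 times that of the myoblast library, after adding 1 read to each count, 2024 remained. They made up 6.37% of the distal intervals and are called premarked regions below. The myoblast H3K27ac library was the smaller of the pair, and 1041 regions met the rule once the myotube H3K27ac library was thinned to its depth, 992 of them among the 2024. H3K27ac in both cell types and myoblast H3K4me1 chose the regions, so their values for these marks are given as a description only.

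C2C12 is an established myoblast line of the C3H mouse strain that fuses into multinucleated myotubes when serum is withdrawn. Myoblasts were grown in 10% serum to near confluence, and myotubes were collected about 5 days after serum withdrawal and freed of unfused cells by mild trypsin treatment. Both came from passages 15 to 18 of the untreated line. Chromatin immunoprecipitation with sequencing (ChIP-seq) had been done for 6 histone marks in each of the 2 cell types, with 1 library per mark and cell type and no input library used here. Every comparison therefore sets 1 library against another, and the intervals given (95%) cover counting error only. No test between conditions was possible, and fewer cells carrying a mark cannot be told apart from less of the mark in each cell.

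H3K4me1 marks enhancers whether or not they are active, while H3K27ac marks active enhancers and promoters. H3K4me3 is highest at promoters, H3K36me3 covers the bodies of transcribed genes, and H3K27me3 is laid down by Polycomb complexes at silenced genes. In muscle, MyoD and myogenin bind E-boxes, of which CAGCTG is a preferred form, MEF2 factors bind an A/T-rich motif beside them, and AP-1 binds TGACTCA in proliferating cells.

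The libraries held 1858771 to 7033100 reads of 34 bp. The labels matched the markers of the cell types. At the promoters of 10 myotube markers, H3K27ac reads summed to 73 in myoblasts and 2325 in myotubes, with a myotube to myoblast ratio of at least 2 at 10 of 10. At 7 cycling myoblast markers they summed to 541 and 221, with a ratio of at most 0.5 at 7 of 7. Among them Myf5 held 35 and 43 reads, a ratio of 0.48 by library share. Over all genes with at least 30 promoter H3K27ac reads, the median ratio was 0.57. It was at least 2 at 4.98% of these genes and at most 0.5 at 41.1%. Promoter H3K4me3 had a ratio of at most 0.5 at 6 of the 7 markers, against 14.0% of all genes. The summed H3K27ac reads of 4 adipocyte markers went from 2 to 15, of 4 osteoblast markers from 8 to 18, of 3 endothelial markers from 10 to 6 and of 4 macrophage markers from 19 to 55. All 55 of the last lay at Cd68. The part of such cells in the results was not tested. The lists named for myoblast H3K27ac and H3K27me3 are each deposited with the other mark's sample. The list was taken by its name. Over the 11745 distal myotube intervals that it overlapped, the median myoblast level was 18.2 times the genome mean for H3K27ac and 0.72 times for H3K27me3.

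The sequences that follow were taken from the mm9 reference, plus strand, 5′ to 3′, and show which muscle motifs lay in the regions beside genes of the muscle lists. Capitals mark CAGCTG and the MEF2 motif, searched here only in its strict form of CTA, 4 bases of A or T and TAG, so looser forms stay in lower case. By the rule set for sequences, a region qualified if it was among the 15 strongest at muscle genes and held either motif in its central 300 bp. Of the 15 regions, 2 qualified: those of Dysf, which encodes the membrane repair protein dysferlin, at chr6:84193574-84193873, and of Popdc3, a Popeye domain membrane protein, at chr10:44936566-44936865.
Dysf: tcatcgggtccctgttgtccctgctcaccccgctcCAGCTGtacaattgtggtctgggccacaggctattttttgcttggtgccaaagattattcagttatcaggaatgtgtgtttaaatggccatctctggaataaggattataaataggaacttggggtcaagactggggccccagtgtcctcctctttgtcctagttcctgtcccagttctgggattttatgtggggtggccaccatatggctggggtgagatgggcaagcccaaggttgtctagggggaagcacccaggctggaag
Popdc3: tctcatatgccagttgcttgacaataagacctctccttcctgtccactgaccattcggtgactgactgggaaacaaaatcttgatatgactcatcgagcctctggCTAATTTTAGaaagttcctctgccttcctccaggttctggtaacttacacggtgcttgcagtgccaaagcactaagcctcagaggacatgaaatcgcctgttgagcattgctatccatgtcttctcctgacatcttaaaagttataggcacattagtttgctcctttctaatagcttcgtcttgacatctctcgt
The remaining motifs lay away from the centres. For 4 further genes, chosen after their values were seen, the stretch of 200 bases with at least 2 CAGCTG motifs is shown. These were Ppp1r3c, a glycogen-targeting subunit of protein phosphatase 1, at chr19:36762083-36762282, Myh3, the embryonic myosin heavy chain, at chr11:66919310-66919509, Camk2b, a calcium-dependent kinase, at chr11:5929187-5929386, and Tnni1, slow skeletal troponin I, at chr1:137675534-137675733.
Ppp1r3c: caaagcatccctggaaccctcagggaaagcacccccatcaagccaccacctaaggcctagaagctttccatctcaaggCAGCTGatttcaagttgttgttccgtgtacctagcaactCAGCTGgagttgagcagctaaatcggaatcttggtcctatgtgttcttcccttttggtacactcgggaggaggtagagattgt
Myh3: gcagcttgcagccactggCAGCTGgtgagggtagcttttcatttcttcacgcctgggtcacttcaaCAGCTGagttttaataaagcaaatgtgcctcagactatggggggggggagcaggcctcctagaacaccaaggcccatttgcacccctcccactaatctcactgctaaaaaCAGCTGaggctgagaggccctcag
Camk2b: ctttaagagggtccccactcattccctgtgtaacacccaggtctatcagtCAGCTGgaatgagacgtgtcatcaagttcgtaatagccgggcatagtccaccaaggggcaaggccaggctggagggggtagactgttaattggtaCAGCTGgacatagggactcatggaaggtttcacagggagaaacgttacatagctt
Tnni1: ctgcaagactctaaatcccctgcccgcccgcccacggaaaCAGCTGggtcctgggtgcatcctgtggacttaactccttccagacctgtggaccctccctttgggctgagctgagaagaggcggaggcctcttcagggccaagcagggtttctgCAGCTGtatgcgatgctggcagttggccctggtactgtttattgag
Of the 2024 regions, 15 (0.741%) held both motifs in the central 300 bp, and of these the one with the most myotube H3K27ac reads (3 in myoblasts, 331 in myotubes), also chosen after values were seen, lay in Macf1, a cytoskeletal crosslinker gene, at chr4:123301676-123301975.
Macf1: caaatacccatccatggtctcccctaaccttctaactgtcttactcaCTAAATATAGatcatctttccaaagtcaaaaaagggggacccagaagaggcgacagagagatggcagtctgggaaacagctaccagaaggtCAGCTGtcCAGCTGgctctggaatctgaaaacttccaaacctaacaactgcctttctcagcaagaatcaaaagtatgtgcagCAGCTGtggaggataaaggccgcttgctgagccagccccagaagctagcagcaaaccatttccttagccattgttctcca

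The premarked regions were 1294.5 bp wide in the median. By the rule, their H3K27ac was low in myoblasts and high in myotubes: the median region held 3 reads in myoblasts and 49 in myotubes, with a range of 20 to 1079 in myotubes. Per base, the median level was 2.73 times the genome mean in myoblasts and 20.5 times in myotubes, and the median ratio was 5.47 (quartiles 4.03 and 8.65). Over all distal intervals, 31.8% had a ratio of at least 3. The myoblast level was low but not absent everywhere. In 610 regions (30.1%) the counting interval of myoblast H3K27ac lay above the genome mean. Just inside the 3-fold threshold stood the regions near Mocs1, Col4a1 and Ctsl, each with 2 reads in myoblasts, 22 in myotubes and a ratio of 3.02. Just outside stood those near Rassf3 and Il28ra, with 4 and 37 reads (2.99), and Lima1, with 7 and 60 reads (3.00 after rounding). At the read threshold, 54 regions that otherwise met the rule had 19 myotube reads and 50 had 20.

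**Figure D1:**
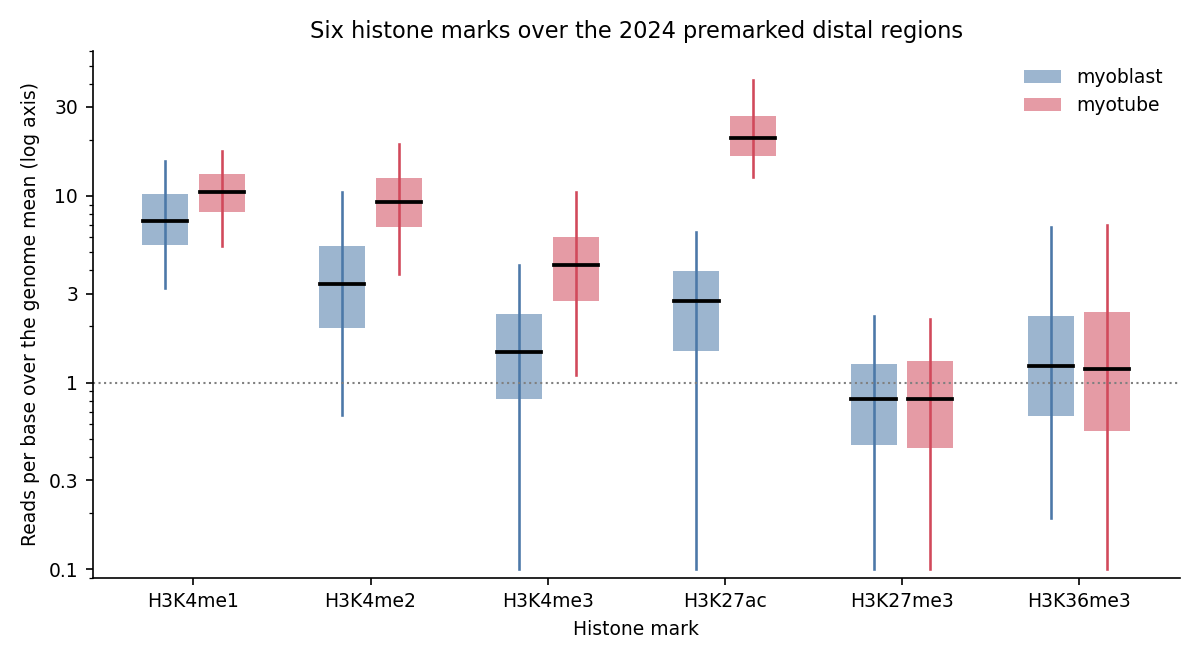
Level of each of the 6 histone marks over the 2024 premarked regions in myoblasts and myotubes, as fold over the genome mean per base, on a log axis. Black lines are medians over regions, boxes quartiles, thin lines the 5th to 95th percentile (drawn from 0.1 where lower), and the dotted line is the genome mean. H3K4me2 and H3K4me3 stood higher in myotubes (medians 9.24 and 4.25) than in myoblasts (3.38 and 1.45), while H3K27me3 and H3K36me3 stood near the genome mean in both.

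H3K4me1, which chose the regions in myoblasts, was kept or moderately higher in myotubes. The median region held 26 reads in myoblasts and 35 in myotubes, or 7.38 and 10.6 times the genome mean. The median ratio was 1.36 (quartiles 0.98 and 1.93), against 1.12 over all distal intervals. A ratio of at least 2 was seen in 451 regions (22.3%, against 28.7% of all distal intervals), and a ratio of at most 0.5 in 32 (1.58%, against 13.0%). The counting interval of a region's own ratio lay above 1 in 676 regions (33.4%, against 18.6%) and below 1 in 70 (3.46%, against 16.9%). The shares with a ratio of at least 2 and at most 0.5 were thus both below those of all distal intervals. Distal intervals with at least 20 myotube H3K27ac reads had a ratio of at least 2 in 22.7%, near the premarked share. Their counting interval lay above 1 in 24.6% and below 1 in 25.8%. The regions by the same rule without a myoblast H3K4me1 interval, 2842 in number, had a median ratio of 3.30, and the 11745 distal intervals already in the myoblast H3K27ac list had 0.68. These differences follow from the choice of the sets, whose myotube levels were closer together (10.6, 8.75 and 10.0 times the genome mean).

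H3K4me2 was not used by the rule, and it was higher in myotubes at most premarked regions. The median region held 8 reads in myoblasts and 24 in myotubes, or 3.38 and 9.24 times the genome mean, and the median ratio was 2.48 (quartiles 1.60 and 3.95). A ratio of at least 2 was seen in 1255 regions (62.0%), against 38.2% of all distal intervals and 37.0% of those with at least 20 myotube H3K27ac reads. A ratio of at most 0.5 was seen in 11 regions (0.543%), against 11.8%. The counting interval of a region's own ratio lay above 1 in 1152 regions (56.9%, against 21.9%) and below 1 in 12 (0.593%, against 10.4%). Among distal intervals with at least 20 myotube H3K27ac reads, it lay above 1 in 33.97% and below 1 in 16.37%. Among the regions without a myoblast H3K4me1 interval, it lay above 1 in 71.15%, and the ratio was at least 2 in 86.38%. Part of the size of the H3K4me2 ratio depended on the scaling. In 160968 windows of 10 kb outside all listed peaks, the myoblast H3K4me2 library placed 11.8% of its reads and the myotube library 20.3%. Scaled on those windows, the median ratio was 1.44 over the regions and 0.87 over all distal intervals, and 635 regions (31.4%, against 21.9%) had a ratio of at least 2. The median of H3K4me1 was then 1.10, against 0.91, with a ratio of at least 2 in 233 regions (11.5%, against 22.0%).

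H3K4me3 was low in both cell types and also higher in myotubes. The median region held 2 reads in myoblasts and 7 in myotubes, or 1.45 and 4.25 times the genome mean, with a median ratio of 2.10 (quartiles 1.40 and 3.64). A ratio of at least 2 was seen in 1107 regions (54.7%), against 31.2% of all distal intervals and 39.5% of those with at least 20 myotube H3K27ac reads. A ratio of at most 0.5 was seen in 43 (2.12%, against 9.26%). At counts this low the own interval lay above 1 in only 565 regions (27.9%, against 9.46%), and below 1 in 0 (against 0.592%). With at least 20 myotube H3K27ac reads the distal shares were 19.5% and 0.979%. Scaled on the windows outside peaks, the median ratio was 2.26, against 1.50 over all distal intervals.

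The remaining marks differed little. For H3K27me3 the median region held 3 reads in myoblasts and 2 in myotubes, 0.82 times the genome mean in both. Its ratio was at least 2 in 407 regions (20.1%, against 22.5%) and at most 0.5 in 303 (15.0%, against 13.6%). For H3K36me3 the median was 5 and 3 reads, or 1.23 and 1.18 times the genome mean. Its ratio was at least 2 in 403 regions (19.9%, against 16.8%) and at most 0.5 in 296 (14.6%, against 13.6%). With 2 to 5 reads in a region, changes of this size in a single region were not detectable at this depth. The own interval lay above 1 in 25 regions for H3K27me3 (1.24%, against 0.695%) and in 117 for H3K36me3 (5.78%, against 2.95%). It lay below 1 in 31 (1.53%, against 0.664%) and in 74 (3.66%, against 3.07%). With at least 20 myotube H3K27ac reads, the distal shares for H3K27me3 were 1.33% above and 1.30% below 1. Those for H3K36me3 were 4.38% and 5.51%.

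With the reads of the 2024 regions added up, H3K4me1 had a myotube to myoblast ratio of 1.42 (1.41 to 1.43) and H3K4me2 of 2.57 (2.54 to 2.62). That of H3K4me3 was 3.09 (3.00 to 3.18) and that of H3K27ac 8.34 (8.15 to 8.54). H3K27me3 stood at 0.94 (0.91 to 0.98) and H3K36me3 at 1.04. The order of the marks was thus the same as for the medians except that H3K4me3 stood above H3K4me2. Across the regions, the log ratios of H3K4me2 and H3K4me1 correlated with r 0.53 (Spearman rho 0.53), and those of H3K27ac and H3K4me2 with r 0.36 (rho 0.35). Regions of 1 library pair share depth and width, so these values (n = 2024) are a description. The myoblast H3K4me1 level and the myotube H3K27ac level had r 0.05 (rho 0.07). Both marks chose the regions, which limits the range of these levels. Whether the levels were related therefore cannot be decided from the chosen regions.

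**Figure D2:**
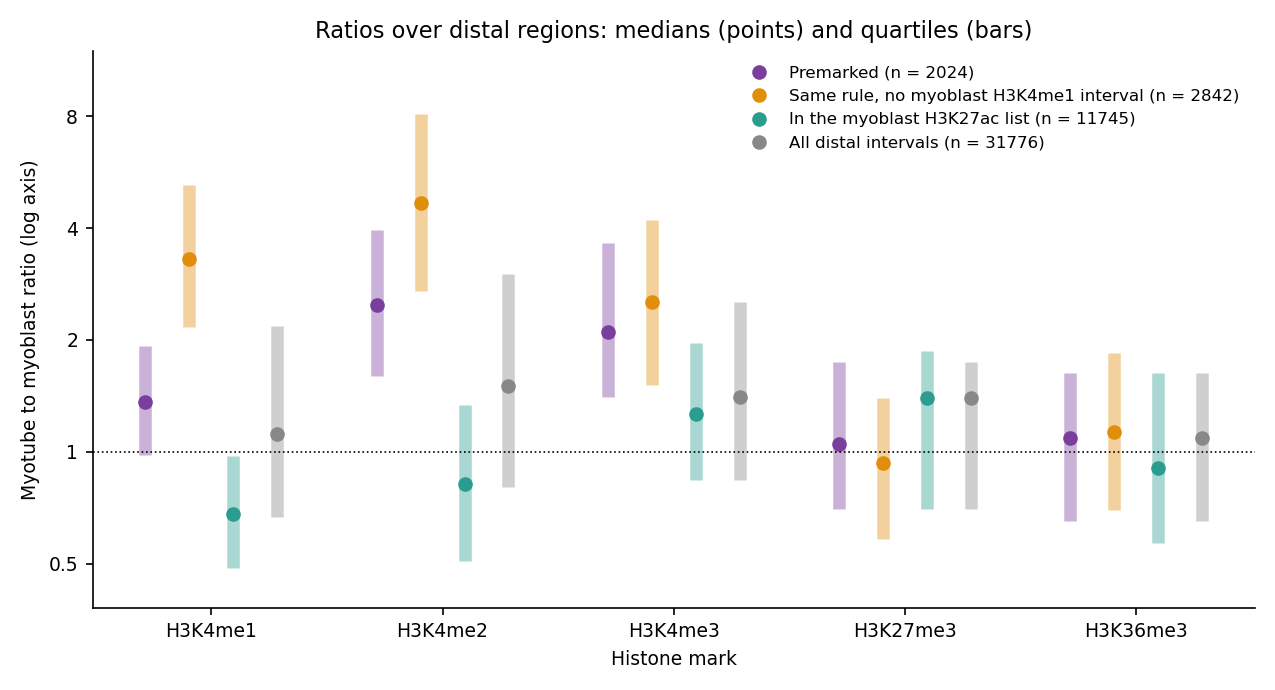
Myotube to myoblast ratio of the 5 marks other than H3K27ac (log axis) for the premarked regions beside the regions without a myoblast H3K4me1 interval, the distal intervals in the myoblast H3K27ac list and all distal intervals, with medians (points) and quartiles (bars) over regions. The premarked regions lay between the other sets for H3K4me1 (median ratio 1.36) and H3K4me2 (2.48).

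H3K4me1 and H3K4me2 in both cell types, and H3K4me3 and H3K27ac in myotubes, were concentrated at the centres of the regions. Within 250 bp of the midpoint, the mean H3K4me1 level was 9.61 times the genome mean in myoblasts and 11.5 times in myotubes, and beyond 3 kb it was 3.61 and 4.85. H3K4me2 at the centre was 5.37 in myoblasts and 12.3 in myotubes, and at 500 to 1000 bp it was 2.51 and 6.71. H3K27ac at the centre was 3.47 and 28.7. In myoblasts the H3K27ac level was 2.54 at 500 to 1000 bp and 3.26 beyond 3 kb. The centre thus stood over lower shoulders but near the flank level, and the highest bin (3.78) lay 4950 bp from the midpoint. The H3K4me1 profile was broader in myotubes, with a width of 1800 bp against 1000 bp in myoblasts. The width was taken midway between the level beyond 3 kb and the highest bin. H3K4me3 at the centre was 1.93 in myoblasts and 5.56 in myotubes, and H3K27me3 was 0.98 and 0.99. Beyond 3 kb H3K4me3 was 1.66 and 2.65, and H3K27me3 was 0.996 and 0.984. H3K36me3 was 2.12 and 2.00 at the centre, and 1.95 and 2.52 beyond 3 kb.

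**Figure D3:**
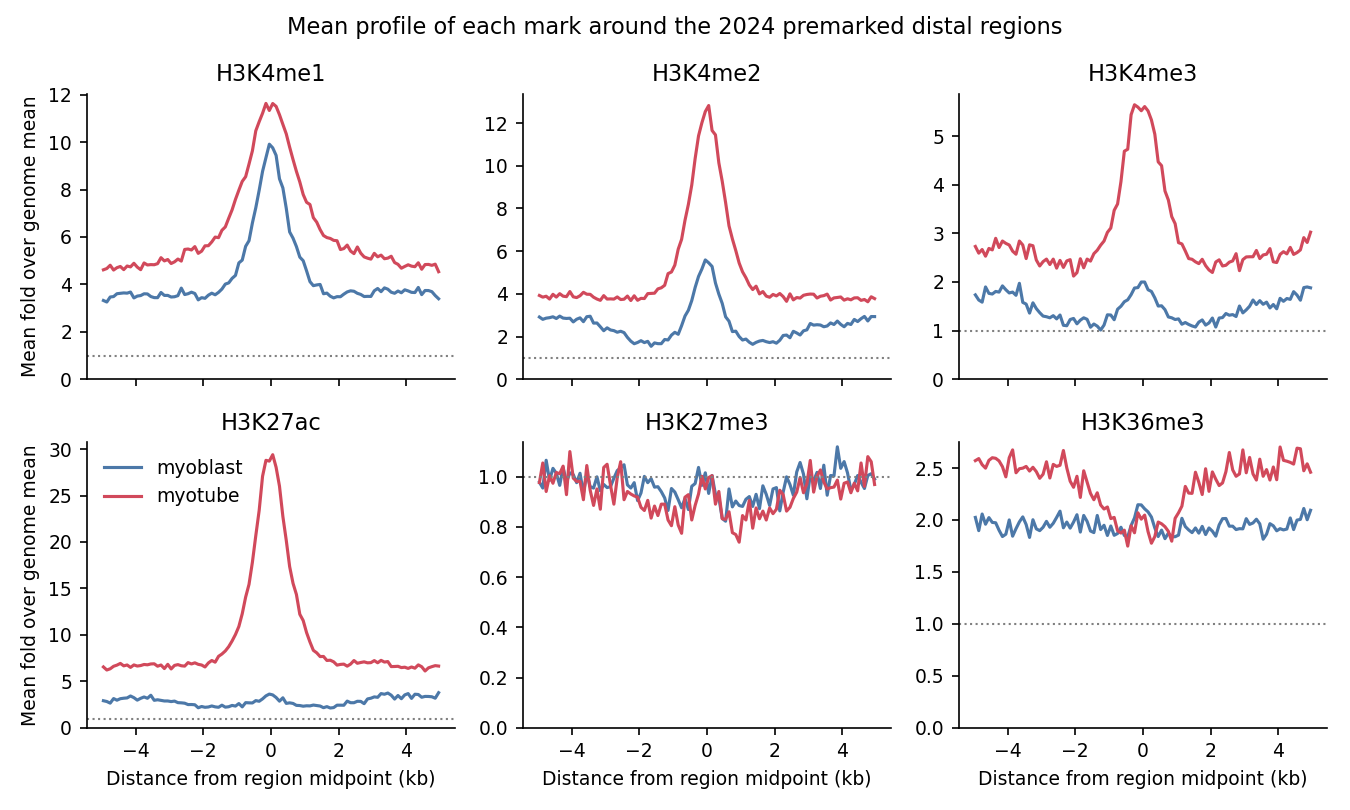
Mean level of the marks (fold over the genome mean) against the distance from the midpoint of the 2024 premarked regions in kb, in 100 bp bins, for the myoblast and the myotube library. H3K4me1 peaked at the centre in both cell types, H3K4me2 stood at 5.37 and 12.3 at the centre, and H3K27ac peaked in myotubes at 28.7.

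The deposited lists gave the same picture by presence and absence. In myoblasts 1618 regions (79.9%) overlapped an H3K4me1 interval and none of H3K4me2, H3K4me3 or H3K27ac, and 394 (19.5%) overlapped H3K4me1 and H3K4me2. In all, 405 regions overlapped the myoblast H3K4me2 list (20.01%, against 32.3% of all distal intervals) and 1500 the myotube list (74.1%, against 48.3%). Overlap with the myotube H3K4me1 list was found for 1668 regions (82.4%, against 54.9%). For H3K4me3, 12 regions overlapped the myoblast list (0.593%, against 6.18%) and 493 the myotube list (24.4%, against 17.0%). Read number matters here. Of distal intervals with at least 20 myotube H3K27ac reads, the myotube lists held 74.6% for H3K4me1, 70.5% for H3K4me2 and 27.6% for H3K4me3. Against these, the premarked share was lower for H3K4me3 and only slightly higher for H3K4me2. Few regions were in the H3K27me3 lists, 6 in myoblasts (0.296%, against 0.252%) and 0 in myotubes (against 0.0409%). The H3K36me3 lists held 152 in myoblasts (7.51%, against 9.94%) and 203 in myotubes (10.03%, against 9.88%). The most frequent path, in 707 regions (34.9%), went from H3K4me1 alone to H3K4me1, H3K4me2 and H3K27ac. In myotubes 873 regions (43.1%) had this combination, 426 (21.05%) had H3K4me3 as well, 353 (17.4%) had H3K4me1 and H3K27ac, and 152 (7.51%) had H3K27ac alone.

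Regions with and without listed H3K4me2 in myoblasts differed mainly in their starting level. The 405 regions in the myoblast H3K4me2 list had a median H3K4me2 level of 7.03 times the genome mean in myoblasts and 11.9 in myotubes, a median ratio of 1.59. The other 1619 had 2.84 and 8.79, a ratio of 2.84. Their myotube H3K27ac was similar, 22.4 and 20.01 times the genome mean. Being in the list selects for a high myoblast count, so the lower ratio of the former is partly set by the split.

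By position, 1029 of the regions lay in introns (50.8%), 943 between genes (46.6%) and 52 in exons (2.57%) of the annotation, close to the 51.1%, 45.9% and 3.05% of all distal intervals. The nearest protein-coding start was 23107.5 bp away in the median. It lay within 10 kb for 490 regions (24.2%, against 25.3% of all distal intervals) and over 50 kb away for 526 (25.99%, against 27.4%), both near the background. Another premarked region lay within 12.5 kb of 596 regions (29.4%). Of the 2842 regions without myoblast H3K4me1, 42.2% had another of their own set within that distance, as had 83.1% of all distal intervals. Such a share rises with the number of regions in a set, so these values are not a like comparison. The median H3K4me2 ratio was 2.65 in introns and 2.31 between genes, and that of H3K4me1 was 1.48 and 1.24.

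Among the regions nearest to genes of the muscle lists, the 15 with the most myotube H3K27ac reads (1 per gene) all had more H3K4me2 per library read in myotubes. Their H3K4me2 reads ranged from 6 to 45 in myoblasts (median 13) and from 31 to 251 in myotubes (median 88), ratios of 1.74 to 11.6, and the counting interval lay above 1 in 15 of 15 (12 of 15 on the window scaling, without Tnni1, Popdc3 and Tead4). For H3K4me3 it lay above 1 in 13, for H3K4me1 in 11 (9 on the window scaling) and for H3K36me3 in 4. For H3K27me3 it lay above 1 in 0 and below 1 in 1, and myotube reads ranged from 1 to 20. Over all 2024 premarked regions the interval lay above 1 in 56.9% for H3K4me2, 27.9% for H3K4me3, 33.4% for H3K4me1 and 5.78% for H3K36me3. For H3K27me3 it lay below 1 in 1.53%. These 15 were ranked by the myotube H3K27ac that chose all regions. Regions with more reads have narrower intervals, so the counts among the 15 are partly set by that ranking. Ratios of single regions below are shares of library reads with no read added.

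**Figure D4:**
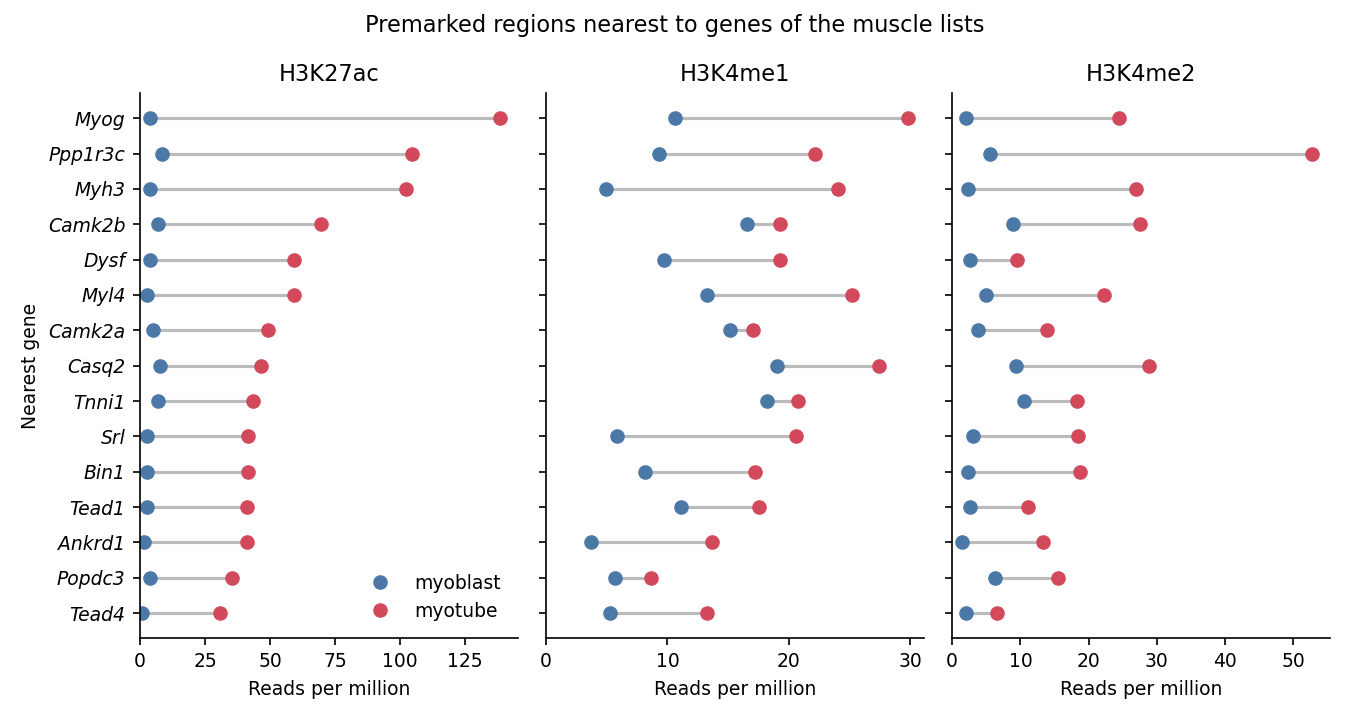
H3K27ac, H3K4me1 and H3K4me2 in myoblasts and myotubes, in reads scaled to library size (RPM, 1 axis per mark, 1 library per point), for the 15 premarked regions with the most myotube H3K27ac reads near genes of the muscle lists, ordered by myotube H3K27ac. H3K4me2 was higher in the myotube library at 15 of 15, with the smallest ratio at Tnni1 (45 and 87 reads).

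Of the muscle transcription factor genes, Myog, which encodes myogenin, a factor needed for terminal differentiation, had the strongest region. It lay 13459 bp upstream of the start, at chr1:136170677-136175567 between genes. It held 7 H3K27ac reads in myoblasts and 654 in myotubes, a ratio of 36.7 (17.7 to 91.8). H3K4me1 went from 69 to 187 reads, a ratio of 2.80 (2.11 to 3.74), and H3K4me2 from 9 to 116, a ratio of 11.6 (5.92 to 26.1). H3K4me3 went from 4 to 41 reads, a ratio of 8.62 (3.12 to 33.1). H3K27me3 held 35 and 14 reads, and the interval of its ratio, 0.56 (0.278 to 1.07), included 1. H3K36me3 held 22 and 18 reads, a ratio of 1.33 (0.674 to 2.61). The intervals of H3K27ac and the H3K4 methylation marks thus lay above 1 at this region, beside a gene whose promoter held 13 and 89 H3K4me3 reads. A second Myog region, chr1:136198800-136200447, lay beyond the end of Myog in an annotated intron of another gene. It held 12 and 128 H3K27ac reads and had one of the highest H3K36me3 ratios, 8 and 43 reads or 8.77 (4.07 to 21.6). For Tead1, a factor that binds MCAT elements, the region at chr7:119895750-119899197 held 5 and 194 H3K27ac reads, and H3K4me2 went from 11 to 53, a ratio of 4.35 (2.24 to 9.23). For its relative Tead4, the region at chr6:128208424-128211020 held 1 and 145 H3K27ac reads, a ratio of 57.0 (10.1 to 2268), and 9 and 31 H3K4me2 reads. The lower counts at Tead4 leave the ratio poorly bounded.

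Of the contractile genes, Myh3 had its region at chr11:66916412-66921490, 27115 bp downstream of the start. It held 7 and 484 H3K27ac reads. H3K4me1 went from 32 to 151 reads, a ratio of 4.87 (3.31 to 7.38), H3K4me2 from 10 to 128, a ratio of 11.5 (6.08 to 24.7), and H3K36me3 from 7 to 34, a ratio of 7.92 (3.46 to 21.2). H3K27me3 held 58 and 20 reads, a ratio of 0.482 (0.275 to 0.814). Myh3 was the 1 of the 15 at which the H3K27me3 interval lay below 1, and its region held the 3 CAGCTG motifs printed above within 200 bases. Myl4, an essential myosin light chain of embryonic muscle, had an intronic region at chr11:104426106-104430363 with 5 and 279 H3K27ac reads and 21 and 106 H3K4me2 reads, a ratio of 4.55 (2.83 to 7.66). Tnni1 had a region 5216 bp upstream, chr1:137672435-137676417, with 13 and 206 H3K27ac reads. There H3K4me1 was nearly as high in myoblasts (118 reads) as in myotubes (130), a ratio of 1.14 (0.88 to 1.47), and H3K4me2 went from 45 to 87, a ratio of 1.74 (1.20 to 2.56). Tnni1 thus had the smallest H3K4me2 ratio of the 15. On the window scaling its ratio was 1.01 (0.70 to 1.49). Ankrd1, a titin-binding Z-disc protein, had a region at chr19:36241292-36243837 with 3 and 194 H3K27ac reads and 6 and 63 H3K4me2 reads, a ratio of 9.47 (4.12 to 26.8).

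Calcium handling genes gave 4 of the 15 regions. At Casq2, the cardiac and slow muscle calsequestrin that stores calcium, the intronic region chr3:101904800-101908829 held 123 and 172 H3K4me1 reads, a ratio of 1.44 (1.14 to 1.83). It held 14 and 220 H3K27ac reads and 40 and 137 H3K4me2 reads, a ratio of 3.09 (2.16 to 4.51). At Camk2b, chr11:5928172-5931376, H3K4me1 held 107 and 121 reads, a ratio of 1.17 (0.893 to 1.53), and H3K4me2 38 and 131, a ratio of 3.11 (2.15 to 4.59). At these regions H3K4me2 differed more than H3K4me1. At Camk2a, another kinase of this family, the region at chr18:61110340-61113417 held 98 and 107 H3K4me1 reads and 16 and 66 H3K4me2 reads. Srl encodes sarcalumenin, a calcium-binding protein of the sarcoplasmic reticulum. Its region chr16:4510905-4514268 had the highest H3K4me1 ratio of the 4, with 38 and 129 H3K4me1 reads, a ratio of 3.50 (2.42 to 5.17).

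Of the membrane and metabolic genes, Ppp1r3c had the most H3K27ac, 16 and 495 reads at chr19:36760382-36765300. Its H3K4me2 went from 24 to 251 reads, a ratio of 9.44 (6.20 to 15.0), and its H3K4me3 from 6 to 122, a ratio of 17.1 (7.63 to 47.5). The promoter of Ppp1r3c itself held 7 and 14 H3K4me3 reads, and the interval of its ratio (0.635 to 4.92) included 1. At these counts a difference at the annotated start could be neither shown nor excluded. At Dysf, chr6:84192334-84195113, H3K27ac held 7 and 280 reads and H3K4me2 11 and 45, while H3K4me3 was level at 10 and 13 reads, a ratio of 1.09 (0.443 to 2.79). Bin1, which shapes transverse tubules, had a region 11440 bp upstream at chr18:32524343-32526519 with 5 and 196 H3K27ac reads and 10 and 89 H3K4me2 reads. Popdc3 had a region 72395 bp upstream at chr10:44935928-44937503 with 7 and 168 H3K27ac reads and 27 and 74 H3K4me2 reads, a ratio of 2.47 (1.57 to 3.998).

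Over all regions, the 5 with the most myotube H3K27ac reads included that of Myog and 4 outside the muscle lists. The first lay 5850 bp from the start of Itgb1bp3, a muscle nicotinamide riboside kinase, at chr10:80656550-80661314, with 21 and 1079 H3K27ac reads, 46 and 359 H3K4me2 reads and 11 and 226 H3K4me3 reads. That H3K4me3 ratio was 17.3. Ldlrad3, a receptor-domain gene, held 28 and 817 H3K27ac reads at chr2:101966131-101973922. Cdh13, which encodes T-cadherin, held 2 and 622 at chr8:121677071-121684271, and Grtp1, a TBC domain gene, held 15 and 608 at chr8:13185713-13191296. The ratio at Cdh13, 122 (33.7 to 1012), was the least bounded of these because of its 2 myoblast reads.

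The extremes of each mark were taken among regions with at least 30 reads of it, 1123 for H3K4me2, 158 for H3K4me3, 21 for H3K27me3 and 234 for H3K36me3. The highest H3K4me2 ratios lay near Rasgrp1, a Ras exchange factor gene, with 0 and 65 reads or at least 19.5-fold higher in myotubes against a floor of 3 reads, another region of Macf1, with 0 and 47 (at least 14.1-fold), and Vac14, with 0 and 39 (at least 11.7-fold). The lowest lay near Txn2, mitochondrial thioredoxin, with 39 and 11 reads, a ratio of 0.254, Cpeb4 (40 and 16, 0.361) and Cyb561 (34 and 14, 0.372). These regions thus had a smaller share of the myotube H3K4me2 library, while H3K27ac, by the rule, was higher. The highest H3K4me3 ratios lay near 4933426M11Rik (1 and 43 reads, 36.2, interval 6.15 to 1461), Shroom3, an actin-binding protein gene (3 and 84, 23.6), and AI316807 (4 and 103, 21.7). The lowest lay near AW555464 (16 and 15, 0.789), Plcb4 (14 and 19, 1.14) and Gm5069 (15 and 24, 1.35).

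Of the 21 regions with at least 30 H3K27me3 reads, the lowest ratios lay near Ankmy1 (47 and 5 reads, 0.149, interval 0.046 to 0.373), Cbfa2t3, a transcriptional corepressor gene (28 and 7, 0.35), and 1500012F01Rik (27 and 7, 0.363). The highest lay near Myh9, non-muscle myosin (13 and 24, 2.58), Ldlrad3 (1.07) and Cpne2 (0.979). For H3K36me3, beside the second Myog region, a high ratio lay in an intron of Scn4a, the muscle sodium channel (10 and 56 reads, 9.13). The whole body of Scn4a held 84 and 866 H3K36me3 reads. The lowest lay near Mrgpre (28 and 2 reads, 0.116), Mapk14, the p38 alpha kinase (32 and 4, 0.204), and Nedd4, a ubiquitin ligase (39 and 5, 0.209).

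Muscle motifs were searched on both strands in the central 300 bp. CAGCTG was found in 537 premarked regions (26.5%), against 27.7% of the regions without myoblast H3K4me1, 24.6% of the intervals in the myoblast H3K27ac list, 23.6% of all distal intervals and 27.2% of those with at least 20 myotube H3K27ac reads. At least 2 copies were found in 101 (4.99%, against 3.55% of all distal intervals). This was near the 4.86% of the regions without myoblast H3K4me1 and the 4.66% of distal intervals with at least 20 myotube H3K27ac reads. The MEF2 motif was found in 41 (2.03%), against 2.64% of the regions without myoblast H3K4me1, 1.05% of those in the myoblast H3K27ac list and 1.24% of all distal intervals. TGACTCA was found in 226 (11.2%), against 7.57% of the regions without myoblast H3K4me1, 15.6% of those in the myoblast H3K27ac list and 11.1% of all distal intervals. For MEF2 and TGACTCA the premarked regions thus stood between the regions without myoblast H3K4me1 and the intervals in the myoblast H3K27ac list. Of distal intervals with at least 20 myotube H3K27ac reads, 1.77% held MEF2, 14.2% TGACTCA, 20.9% CAGGTG and 13.6% GCTCG. Against these the premarked share was near for MEF2 and lower for TGACTCA. The E-box CAGGTG was found in 24.2%, against 22.6% of the regions without myoblast H3K4me1, 19.8% of those in the myoblast H3K27ac list and 21.3% of all distal intervals. The E-boxes CATCTG (25.1%, against 24.5% of all distal intervals) and CATATG (5.58%, against 5.44%) lay near the background. So did GGAATG, a TEAD motif (20.6%, against 19.3%), TGTGGT, a RUNX motif (27.2%, against 25.9%), TCAGGTT (4.99%, against 5.22%), the SRF CArG box (1.63%, against 1.72%) and GCTCG (11.3%, against 12.4%). GCTCG, part of the ZBED6 site, was searched because the study concerns that repressor. The median GC content was 48.0%, against 48.3%.

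The motifs were denser at the centres than in the flanks. CAGCTG had 1.08 copies per kb at the centre and 0.54 in the flanks, 2.02 times as many, TGACTCA 2.23 times and MEF2 3.00 times. In the regions without myoblast H3K4me1 these ratios were 2.25, 1.51 and 4.94, and in the intervals of the myoblast H3K27ac list 1.71, 2.49 and 2.08. Regions with and without CAGCTG had like ratios of H3K4me2 (medians 2.44 and 2.499) and H3K27ac (5.51 and 5.47). The 226 with TGACTCA had a median H3K4me1 ratio of 1.13 and H3K4me2 ratio of 2.19, and the 41 with MEF2 had an H3K4me3 ratio of 3.36. Over the whole intervals of the 15 muscle regions, CAGCTG was found 6 times at Tnni1, 5 at Dysf, 4 at Myh3 and Camk2b, and 0 times at Myog, Casq2, Camk2a and Popdc3. A match is a description and not a bound site.

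The nearest genes of the premarked regions numbered 1404 of 21418 protein-coding genes (6.56%). Of these 1034 had 1 region, 235 had 2 and 135 had 3 or more. Of the 1404, 608 were also nearest to a region without myoblast H3K4me1. H3K4me3 at their promoters had a median ratio of 0.946 (quartiles over genes 0.72 and 1.32), against 0.841 over all genes. It was at least 2 at 185 (13.2%, against 7.52%) and at most 0.5 at 107 (7.62%, against 14.0%). H3K36me3 over the bodies of the 1275 genes with at least 30 reads had a median ratio of 1.14 (quartiles 0.84 and 1.56), against 1.03. It was at least 2 at 198 (15.5%, against 7.30%) and at most 0.5 at 44 (3.45%, against 6.03%). Most nearest genes therefore had a ratio between 0.5 and 2 on both measures. Among genes with at least 30 body reads, the median body ratio was 1.11 for the 930 with 1 region, 1.23 for the 217 with 2 and 1.28 for the 128 with 3 or more. It was 1.07 for the 717 of these genes with no region of the kind without myoblast H3K4me1, 76 of which (10.6%) had a ratio of at least 2. It was 1.26 for the 558 with both kinds, 122 of which (21.9%) had a ratio of at least 2. The 1678 genes nearest to a region without myoblast H3K4me1 had median ratios of 0.969 at promoters and 1.17 over bodies. A ratio of at least 2 was seen at 14.2% of their promoters and 17.3% of their bodies with at least 30 reads. For genes nearest to any distal interval these shares were 8.48% and 9.33%. The shares above those of all genes were thus not particular to premarked regions.

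Of the 199 muscle-list genes found in the annotation, 62 (31.2%) were the nearest gene of a premarked region, against 6.56% of all genes. The same lists gave 32.7% for the regions without myoblast H3K4me1, against 7.83% of all genes, and 45.2% for the intervals in the myoblast H3K27ac list, against 19.2%, so the share above background was not particular to premarked regions. By role, the genes with a region were 12 of 25 for calcium handling, 9 of 22 for membrane and its repair, 13 of 29 for myogenic factors, 11 of 39 for the contractile apparatus and 7 of 29 for the Z-disc. They were 4 of 16 for the synapse, 3 of 21 for metabolism and 3 of 18 for fusion. Calcium genes included Atp2a1, the fast muscle calcium pump, Cacna1s, the voltage sensor, and Jph2, junctophilin. Factors included Myod1, Mef2a, Mef2c and Vgll2, and the fusion genes were Tmem8c, the fusogen myomaker, Tgm2 and Nfatc2. Of the lists outside muscle differentiation, inhibitory and myoblast factors had 8 of 26, among them Myc, Hes1, Zeb1 and Runx1, growth factor genes 6 of 27, extracellular matrix 3 of 28 and cell cycle 0 of 25. Of the 61 muscle genes with a region and at least 30 body reads, 26 had an H3K36me3 ratio of at least 2 (against 7.30% of all genes and 15.5% of all nearest genes) and 2 of at most 0.5 (against 6.03% and 3.45%), with a median of 1.69. The body share of all muscle-list genes was not computed, so these values cannot be tied to having a region. Promoter H3K4me3 had a ratio of at least 2 at 34 of the 62 and at 102 of all 199 muscle-list genes (7.52% of all genes).

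**Figure D5:**
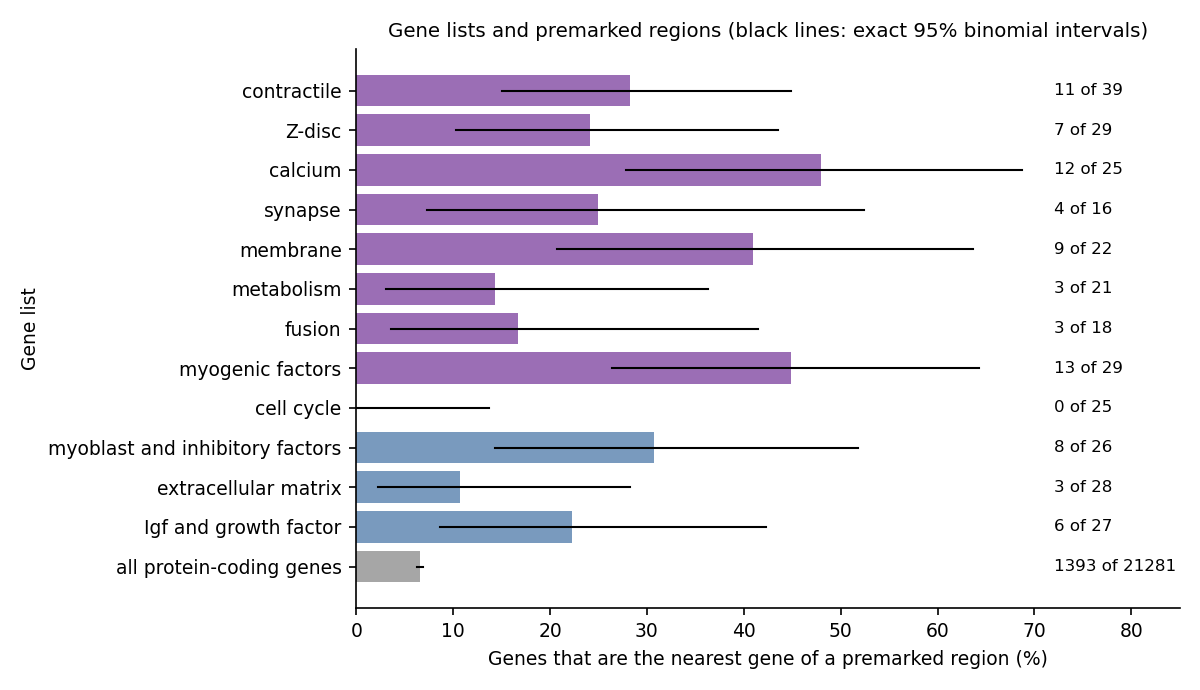
Percent of the genes of each list that are the nearest gene of at least 1 premarked region, with exact binomial intervals (95%) as black lines, muscle lists in purple, other lists in blue and all gene symbols in grey (6.55%). The calcium list stands highest (12 of 25 genes) and the cell cycle list has 0 of 25.

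Gene bodies and promoters at single muscle genes ranged widely. Over the body, H3K36me3 went from 47 to 485 reads at Myh3, a ratio of 16.5, from 123 to 749 at Casq2, a ratio of 9.86, and from 610 to 4008 at Dysf, a ratio of 10.7 (9.84 to 11.7). It went from 221 to 668 at Camk2b, a ratio of 4.91, and from 107 to 222 at Tnni1, a ratio of 3.37, where promoter H3K4me3 went from 7 to 264 reads. In the opposite direction stood Ankrd1 (323 and 103 reads, 0.52) and Popdc3 (563 and 219, 0.64), and Tead1 was near 1 (0.90). An H3K27ac difference at a region was thus not always beside an H3K36me3 difference of the same direction at the nearest gene.

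The genes nearest to the most premarked regions were mostly outside the muscle lists. Tbc1d1, a Rab GTPase activator acting in glucose uptake, had 11 regions over 199.9 kb. Its body H3K36me3 was level at 2829 and 1692 reads, a ratio of 0.98. Lrch1 and Pard3, a cell polarity gene, had 9 each, with body ratios of 1.54 and 1.43, and Zfp36l1, an RNA-binding protein gene, had 9. Runx1, a transcription factor of the inhibitory list, had 8, with a body ratio of 1.16. Of the 6 genes with 6 regions each, Ahnak, Bin1, Dysf, Ldlrad3 and 1110051M20Rik are named, and those of Ahnak, a large scaffold protein, lay within 16.5 kb. Dysf was the 1 of these 10 genes with a body ratio over 2.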

How the data were processed

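The authors aligned 34 bp reads to mm9 with Mosaik 1.0.1384, per the submitters' processing notes, and deposited the read positions and MACS peak lists. The MACS settings are not given in the sources used here. The deposited score of a listed interval was at least 50. Reads were turned into counts here: each of the authors' deposited reads was extended to 150 bp and counted once, in the interval that held its midpoint. Library totals scaled the ratios, with 1 read added to each count over sets of regions, and a floor of 3 reads stood for 0. Level is reads per base over the genome mean. Ratios have exact conditional binomial intervals (95%). Gene starts and bodies came from GENCODE M1 (Ensembl 65). Counting used Python 3.11.15 with pandas 2.3.3 and numpy 2.4.6, intervals scipy 1.17.1 and plots matplotlib 3.10.9, and the scripts were tested on simulated data.

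With 1 library per group there was no test. Regions were named by rule: the strongest region of each of 15 muscle-list genes, the 5 with the most H3K27ac reads, the 3 highest and 3 lowest ratios of each of 4 marks, those beside the 3-fold threshold and the 10 genes with the most regions. The members and the gene lists were chosen with earlier results of these data known. Alternatives changed the scaling, added reads, extension, windows, duplicates, overlap, scores and thresholds. Some results that the naming rule picked are not reported here.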

Additional observations from a re-analysis of the deposited data

How the results depend on the processing

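The count of 2024 regions fell to 1228 with myoblast H3K4me1 scores of at least 100, to 1136 at 5-fold and to 1041 with the myotube H3K27ac library thinned to the myoblast depth. Of those 1041, 992 were among the 2024. With the names of the myoblast H3K27ac and H3K27me3 lists exchanged it was 2707, of which 2018 were shared. On window scaling, chosen from reads outside peaks, the median ratio was 1.10 for H3K4me1, 1.44 for H3K4me2 and 2.26 for H3K4me3. It was 1.10 for H3K27me3, 1.28 for H3K36me3 and 1.34 for H3K36me3 over gene bodies (all genes 1.21). For promoter H3K4me3 it was 1.01 in place of 0.946 (all genes 0.902). That median thus went from below 1 to about 1 and stayed above that of all genes. The scaling turned the direction of the medians of all distal intervals for H3K4me2 (1.50 to 0.87) and H3K4me1 (1.12 to 0.91). With 5 added reads the region medians were 1.31, 1.93, 1.42, 1.22 and 1.28 in the same order of the 5 marks. H3K4me1 was 1.42 in 2 kb windows. H3K4me2 was 2.14 where H3K4me1 intervals covered at least 50% of the region and 2.89 at 5-fold. With 1 read per position H3K27me3 was 1.05 and H3K36me3 1.09. CAGCTG was in 61.2% of 1 kb windows (all distal 56.3%). With genes within 50 kb the body median was 1.18. The cause of these shifts was not tested. Adding chromosome X, the stricter scores for the muscle lists and the TGACTCA windows were chosen after seeing the data. No paired analysis was possible because each mark and cell type had 1 library. At 2 to 8 reads per region, depth limits single-region ratios of H3K4me3, H3K27me3 and H3K36me3.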

Other observations

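On chromosome X, left out by the rule, 6 intervals met its other conditions. Among them were those near Tsc22d3 (6 H3K27ac reads in myoblasts and 61 in myotubes), Ftsj1 (2 and 33), Bcor (0 and 26), Fhl1, a LIM domain protein gene of muscle (2 and 25), and Zcchc13 (2 and 22). H3K4me2 held 8 and 19 reads at the region of Tsc22d3 and 3 and 2 at that of Ftsj1.

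Muscle microRNA genes were not among the protein-coding genes used for nearest genes, and their distances were computed after the other values were seen. A premarked region at chr1:20656218-20659163 lay 11401 bp from Mir206 and 15160 bp from Mir133b, and its nearest protein-coding gene was Pkhd1. It held 9 H3K27ac reads in myoblasts and 201 in myotubes, and 17 and 78 H3K4me2 reads. Another at chr2:155431422-155432710 lay 16551 bp from Mir499, a microRNA gene inside the myosin gene Myh7b, with 2 and 91 H3K27ac reads and 8 and 45 H3K4me2 reads.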
